A study of Rattus norvegicus with 6 samples.

Results

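The 10 genes described here encode keratins (Krt19, Krt8, Krt18, Krt7 and Krt20), the filament protein vimentin (Vim), the annexins Anxa1 and Anxa2, the calcium binding protein S100a6 and galectin 3 (Lgals3). They were chosen by name as filament, membrane and calcium binding genes of stressed epithelium, with earlier results of these data known. Every probe whose accession maps to one of these rat symbols was taken. That gave 14 probes, of which 13 were kept, and 9 of the 10 genes entered the comparison among 31087 genes tested in all. The samples were renal cortex from male Sprague-Dawley (Crl:CD(SD)) rats, 5 weeks old when bought and fed a basal diet, each measured on 1 single-colour Agilent array of total RNA. The control group (VC, n = 3 animals) received water for 4 weeks, and the treated group (n = 3 animals) received o-anisidine hydrochloride, an aromatic amine, at 700 mg/kg/day for 4 weeks. The labels do not name the route of dosing, and 1 dose and 1 time were studied.

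Keratins of simple epithelia assemble as obligate pairs of a type I chain (Krt18, Krt19, Krt20) and a type II chain (Krt7, Krt8) into filaments that carry mechanical load. In the kidney, Krt8 and Krt18 are the common pair of tubule cells, Krt7 and Krt19 are best known from the collecting duct and the urothelium, and Krt20 belongs mainly to urothelium and gut. Vimentin forms the filaments of mesenchymal, endothelial and glomerular cells, and injured tubule cells can also make it. Anxa1 and Anxa2 bind membrane phospholipids when calcium is present, S100a6 is a small calcium sensor, and Lgals3 binds galactosides on glycoproteins. All of them are known as genes whose RNA can rise in regenerating tubules.

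Values are log2 of the processed spot signal minus the array's 75th percentile, so 0 is the signal of the probe at that percentile, and a difference of 1 is 2-fold. Levels of a gene are compared between arrays for 1 probe, not between probes. The summed signals of lists given below add different probes, so they are set mainly by the brightest probes of a list. Each array had 41670 to 43630 of its 61657 probes well above background, no spot was saturated, and arrays correlated at 0.990 to 0.994 across genes. All 14 proximal tubule markers, all 19 collecting duct markers and all 11 podocyte and parietal cell markers on the list could be measured above background. The slides were uneven over the groups: the 3 controls and o-anisidine 3 shared 1 slide and scan, and o-anisidine 1 and 2 were on another. With 3 arrays a group, precision is limited by their number.

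Krt19 stood apart from the other genes of the set. Its signal was 7.37-fold higher in the cortex of treated rats than in controls, while Krt8, Krt18, Krt7, Vim, Anxa1 and S100a6 differed by at most 1.14-fold, and Anxa2 and Lgals3 were 1.21-fold and 1.2-fold higher. None of the 9 passed an adjusted p of 0.05 (limma with Benjamini-Hochberg adjustment over all genes), a threshold that 0.0611% of all genes passed. At an unadjusted p under 0.05, 3 of 9 were higher (Krt19, Anxa2 and Lgals3), against 6.36% of all genes, and 0 of 9 were lower, against 5.14%. The 3 treated values lay above all 3 control values for 4 of 9 genes (Krt19, Krt8, Anxa2 and Lgals3), against 9.55% of all genes, and below them for 0 of 9, against 8.88%. The median log2 change of the 9 genes was 0.17, beside 0.00 over all genes tested.

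**Figure D1:**
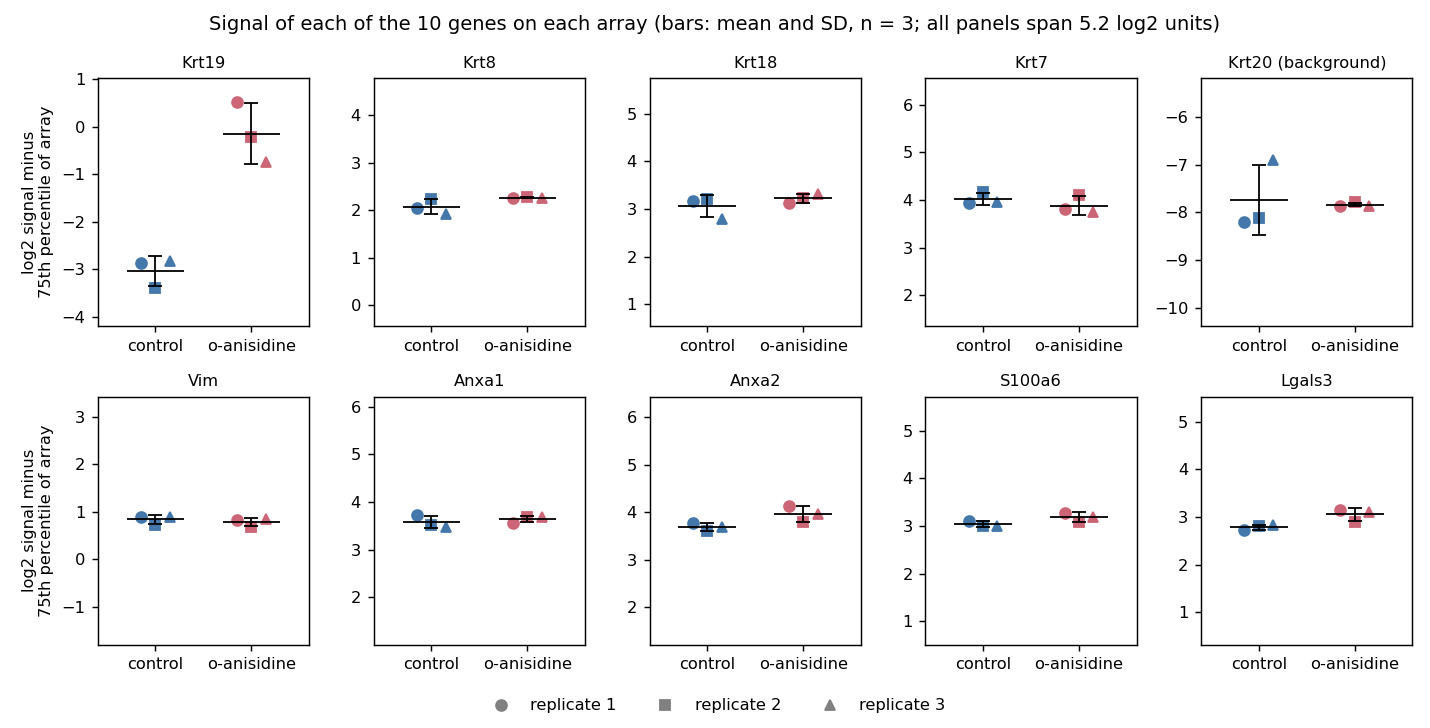
Log2 signal relative to the array's 75th percentile of each of the 10 genes (y axis) in the control and o-anisidine groups (x axis), with 1 point per array, the replicate number as the symbol, and bars for the mean and SD (n = 3). Every panel spans the same height in log2 units but has its own centre; Krt19 lies between -3.39 and -2.83 in controls and between -0.75 and 0.52 after o-anisidine, while the panels of the other genes show small or no separation, and Krt20 was not above background on any array.

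Krt19, the smallest type I keratin and the one that lacks most of the tail domain, had log2 signals of -2.86, -3.39 and -2.83 on control 1, 2 and 3. On o-anisidine 1, 2 and 3 they were 0.52, -0.22 and -0.75. In linear terms, controls lay at 0.0953 to 0.140 times the array's 75th percentile and treated arrays at 0.594 to 1.44 times. The groups did not overlap, and the lowest treated array, o-anisidine 3, was 2.08 log2 units above the highest control. The means were -3.03 ± 0.31 and -0.15 ± 0.64 (SD, n = 3 each), a log2 change of 2.88 (SE 0.34; 95% interval 2.06 to 3.71, or 4.16-fold to 13.1-fold). By size of the rise it was number 8 of 31087 genes, and by p number 46 (adjusted p = 0.0894 from limma). The call depended on the method: the adjusted p was 0.0356 after normexp background correction, where the log2 change was 2.44, and 0.0430 when limma's variances followed a robust trend with signal. Within the slide that held both groups, which has o-anisidine 3 as its only treated array, the log2 change was 2.28 (adjusted p = 0.184), and with slide as a fixed block it was the same (adjusted p = 0.203).

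The other simple keratins did not follow Krt19. Krt8, the type II partner of Krt18 and Krt19, was at 2.05, 2.24 and 1.93 on the controls and at 2.25, 2.28 and 2.25 on the treated arrays. The groups were separate by a margin that is small beside the spread of the controls, since control 2 reached 2.24. Its log2 change was 0.19 (SE 0.10; 95% interval -0.04 to 0.43, or 0.973-fold to 1.34-fold; adjusted p = 0.497 from limma). Krt18, its type I partner, had 3 probes. The probe with the highest mean was at 3.17, 3.20 and 2.80 on the controls and at 3.13, 3.23 and 3.31 after o-anisidine, with overlapping groups and a log2 difference of 0.17 (SE 0.13; 95% interval -0.15 to 0.48; adjusted p = 0.661). The second probe overlapped too, with a log2 change of 0.08 (SE 0.11).

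The third Krt18 probe gave the largest difference, at 0.86, 0.99 and 0.54 on the controls and 1.08, 1.15 and 1.07 after o-anisidine. Its groups did not overlap, with a log2 difference of 0.31 (SE 0.13; adjusted p = 0.425 with each probe fitted as its own feature). All 3 Krt18 probes and the Krt8 probe had their lowest value on control 3. On the treated arrays the main Krt18 probe spanned 3.13 to 3.31 and Krt8 2.25 to 2.28. The difference between the Krt8 and Krt18 deviations from their control means was 0.00 ± 0.13 on the controls, where the mean is 0 by construction. After o-anisidine it was 0.03 ± 0.09 (SD, n = 3 each). The two-sided exact permutation test gave p = 0.80, where the smallest p possible is 0.10. Without control 3 the log2 changes of Krt8 and Krt18 were 0.12 and 0.04.

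Krt7, a type II keratin of ducts and urothelium, was at 3.93, 4.18 and 3.96 on the controls and at 3.81, 4.10 and 3.74 on the treated arrays. The groups overlapped, with o-anisidine 2 inside the control range and the other two below it. The log2 change was -0.14 (SE 0.13; 95% interval -0.45 to 0.17; adjusted p = 0.702 from limma), and -0.29 within the shared slide. Krt20 had 1 probe, which was not well above background on any of the 6 arrays and so has no fold.

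The difference between Krt19 and each of these keratins was tested on the deviations of each array from the control mean. Krt19 exceeded Krt8 by 2.69 ± 0.64, Krt18 by 2.72 ± 0.73 and Krt7 by 3.02 ± 0.65 on the treated arrays (SD, n = 3), against 0.00 ± 0.46, 0.00 ± 0.48 and 0.00 ± 0.45 on the controls. Each of these 3 differences was larger on every treated array than on every control, and the two-sided exact permutation p was 0.10, the smallest that 3 arrays against 3 allow. Adjusted over the 4 keratin differences computed, it was 0.133 (exact permutation test with Benjamini-Hochberg adjustment). Krt19 had a gap of 2.08 log2 units between its groups, and Krt8, Krt18 and Krt7 deviated by only -0.29 to 0.25. The separation of the 3 differences therefore followed from values already given, and the test adds no separate support.

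**Figure D2:**
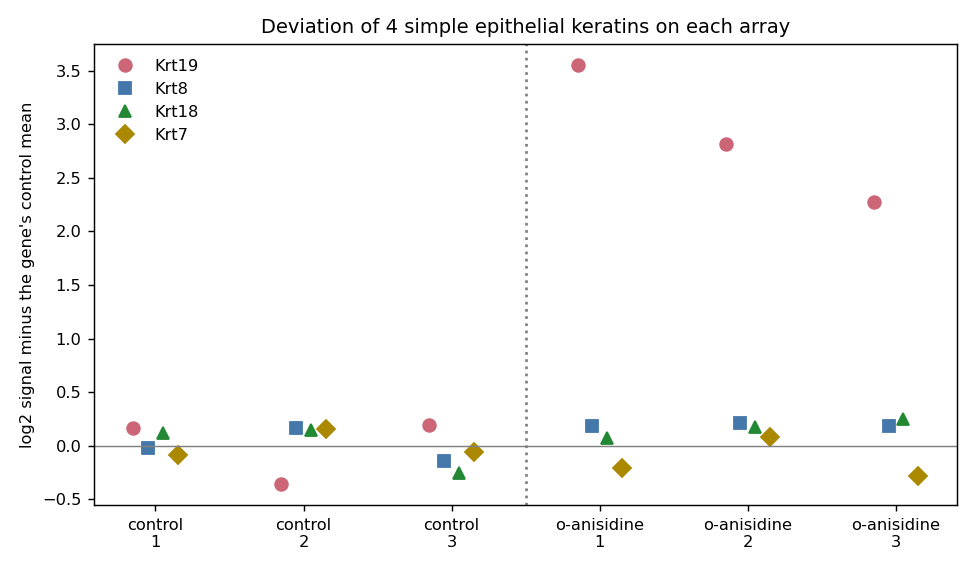
Log2 signal of Krt19, Krt8, Krt18 and Krt7 (probe with the highest mean) minus the gene's mean over the 3 controls (y axis) on each array (x axis), 1 point per gene and array, with control arrays left of the dotted line. Krt19 lies 2.28 or more above its control mean on each treated array, while Krt8, Krt18 and Krt7 stay between -0.29 and 0.25 on all 6 arrays.

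The keratin genes lie in clusters, and in the gene order of the GRCr8 assembly Krt8 and Krt18 are immediate neighbours. On the far side of Krt18 is Eif4b, which encodes a translation factor and had a log2 change of 0.00 (SE 0.11). Krt19 lies between Krt15 and Krt9 in the type I cluster. Krt15, a keratin of basal epithelium, had a log2 change of 0.08 (SE 0.18; 95% interval -0.37 to 0.52), with all treated values inside the control range. Krt14, another basal keratin and the next neighbour but one, had 0.08 (SE 0.22). Krt9, whose protein belongs to thick skin, had lower values after treatment (log2 change -0.71, SE 0.19; adjusted p = 0.266 from limma), but it was well above background on only 1 treated array. Krt80, next to Krt7, was at -0.88, -0.55 and -0.39 on the controls and -0.20, -0.28 and -0.35 after o-anisidine, a log2 difference of 0.33 (SE 0.14; adjusted p = 0.436) without overlap.

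The promoters of Krt8 and Krt18 are shown because the genes are neighbours and encode a filament pair, and that of Anxa2 because both of its probes were higher on every treated array. The sequences are the 250 bases before the annotated start, 5′ to 3′ on the gene's strand, from RefSeq on GRCr8. Entries of 7 of the 10 genes matched. Krt19, Krt7 and Lgals3 had no entry, so their promoters were not examined. They are chr7:135010340-135010589 (minus strand) for Krt8, chr7:135035918-135036167 (plus strand) for Krt18 and chr8:78986002-78986251 (plus strand) for Anxa2. Capitals mark matches, on either strand, to the xenobiotic response element core GCGTG, the AP-1 motif TGANTCA, the GC box GGGCGG and the TATA box TATAAA.
Krt8: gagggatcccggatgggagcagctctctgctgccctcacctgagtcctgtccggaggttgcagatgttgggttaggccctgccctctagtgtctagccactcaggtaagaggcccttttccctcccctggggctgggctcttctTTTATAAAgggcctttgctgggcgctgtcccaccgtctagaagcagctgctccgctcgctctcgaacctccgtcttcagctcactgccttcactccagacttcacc
Krt18: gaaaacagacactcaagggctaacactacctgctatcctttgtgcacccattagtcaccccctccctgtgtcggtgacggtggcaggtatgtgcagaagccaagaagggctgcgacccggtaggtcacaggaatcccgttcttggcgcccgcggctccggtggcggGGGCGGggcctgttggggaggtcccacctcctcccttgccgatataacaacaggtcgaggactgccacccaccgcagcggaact
Anxa2: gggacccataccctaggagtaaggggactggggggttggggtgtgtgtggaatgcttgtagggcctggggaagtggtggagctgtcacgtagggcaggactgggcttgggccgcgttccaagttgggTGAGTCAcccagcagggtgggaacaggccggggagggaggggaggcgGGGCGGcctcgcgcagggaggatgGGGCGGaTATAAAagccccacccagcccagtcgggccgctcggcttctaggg

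In these windows Krt8 held the TATA box letters on both strands in overlapping matches, and Krt18 held 1 GC box and no TATA box by these letters. Anxa2 held 1 AP-1 motif, 2 GC boxes and 1 TATA box. Among 33469 promoter windows of the same length, 25.9% held GCGTG, 6.34% TGANTCA, 30.5% GGGCGG and 12.9% TATAAA. Of the 7 matched genes, S100a6 alone held GCGTG, in 2 places, and Anxa2 alone held TGANTCA. These are letter matches only, and none of the arrays measured binding.

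Anxa2, which organises membrane and actin contacts in a complex with S100a10, was higher on every treated array on both of its probes. The brighter probe was at 3.76, 3.60 and 3.69 on the controls and at 4.12, 3.79 and 3.96 on o-anisidine 1, 2 and 3. The groups did not overlap, but o-anisidine 2 was just above control 1. The log2 change was 0.27 (SE 0.11; 95% interval 0.01 to 0.53, or 1.01-fold to 1.45-fold; adjusted p = 0.420 from limma). The second probe was at 1.66, 1.50 and 1.51 and then at 2.01, 1.75 and 1.84, a log2 difference of 0.31 (SE 0.10; adjusted p = 0.327 with each probe fitted as its own feature). Within the shared slide the probes gave 0.28 and 0.28.

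Anxa1, whose protein dampens neutrophil recruitment, had 2 probes that did not separate the groups. The brighter was at 3.72, 3.53 and 3.48 on the controls and at 3.56, 3.68 and 3.68 after o-anisidine. The log2 change was 0.06 (SE 0.09; 95% interval -0.16 to 0.29; adjusted p = 0.826 from limma), and the other probe gave 0.07 (SE 0.07). The interval covers changes from 0.895-fold to 1.22-fold. Of 8 other annexins tested, 6 were above 0 and 2 below, none passed in either direction, and their median log2 change was 0.07. At an unadjusted p under 0.05 from limma there were 0 of 8, against 6.36% of all genes higher and 5.14% lower. None of the 8 had groups that did not overlap, against 9.55% of all genes higher and 8.88% lower. Anxa5, the phosphatidylserine binder used to stain dying cells, had the smallest p of these (log2 change 0.15, SE 0.09, adjusted p = 0.580).

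Lgals3, secreted by macrophages and by injured epithelium, was at 2.73, 2.81 and 2.83 on the controls and at 3.15, 2.90 and 3.11 on o-anisidine 1, 2 and 3. The groups did not overlap, and o-anisidine 2 was again the treated array closest to the controls. The log2 change was 0.27 (SE 0.09; 95% interval 0.05 to 0.49, or 1.03-fold to 1.4-fold; adjusted p = 0.368 from limma), and 0.33 within the shared slide. Of 8 other galectins tested, 4 were above 0 and 4 below, with a median of 0.03 and none past the threshold. Lgals5, a galectin of rat red cells, had the smallest p among them, with -0.17, -0.42 and -0.52 on the controls and 0.08, 0.50 and 0.28 after treatment (log2 change 0.66, SE 0.14, adjusted p = 0.193). Lgals1, the galectin of stroma, had a log2 change of 0.08 (SE 0.13).

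S100a6 was at 3.11, 2.99 and 3.01 on the controls and at 3.28, 3.08 and 3.20 after o-anisidine, with o-anisidine 2 inside the control range. The log2 change was 0.15 (SE 0.08; 95% interval -0.06 to 0.35; adjusted p = 0.547 from limma). Among 13 other S100 genes tested, 11 were above 0 and 5 had treated values above all controls (9.55% among all genes). In that direction 4 had an unadjusted p under 0.05 from limma (6.36% among all genes), but none passed the threshold. The median was 0.07. S100a8 and S100a9, which encode the calprotectin of neutrophils, had the largest differences. S100a9 was at -1.27, -1.74 and -2.04 on the controls and at -0.07, -0.40 and -0.46 after treatment, a log2 difference of 1.37 (SE 0.22; adjusted p = 0.115).

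Partners of the annexins were among those S100 genes. S100a10, the partner of Anxa2, was at 2.94, 2.96 and 2.87 on the controls and at 3.21, 3.09 and 3.17 after o-anisidine. Its log2 change was 0.23 (SE 0.07; adjusted p = 0.329 from limma), without overlap. S100a11, a partner of Anxa1, was at 1.50, 1.19 and 1.36 and then at 2.04, 1.57 and 1.90, a log2 difference of 0.49 (SE 0.15; adjusted p = 0.323). S100a10, S100a11, S100a6, Anxa2 and Lgals3 each had their lowest treated value on o-anisidine 2. S100a8, S100a10 and S100a11 are named because of the values seen.

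Vim had the smallest difference of the 9 genes. It was at 0.89, 0.72 and 0.90 on the controls and at 0.82, 0.69 and 0.85 on the treated arrays, so the groups overlapped almost fully. The log2 change was -0.05 (SE 0.09; adjusted p = 0.846 from limma), and its 95% interval, -0.26 to 0.16, covers changes from 0.833-fold to 1.12-fold. The other intermediate filament genes were mixed: 2 of 8 were above 0 and 6 below, none passed, and the median was -0.16. Treated values lay above all controls for 1 of 8 (9.55% among all genes) and below them for 2 of 8 (8.88%). Bfsp1, a lens filament gene, had the lowest p (log2 change -0.38, SE 0.17, adjusted p = 0.455), and Des, the filament of muscle and mesangium, had -0.16 (SE 0.08).

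**Figure D3:**
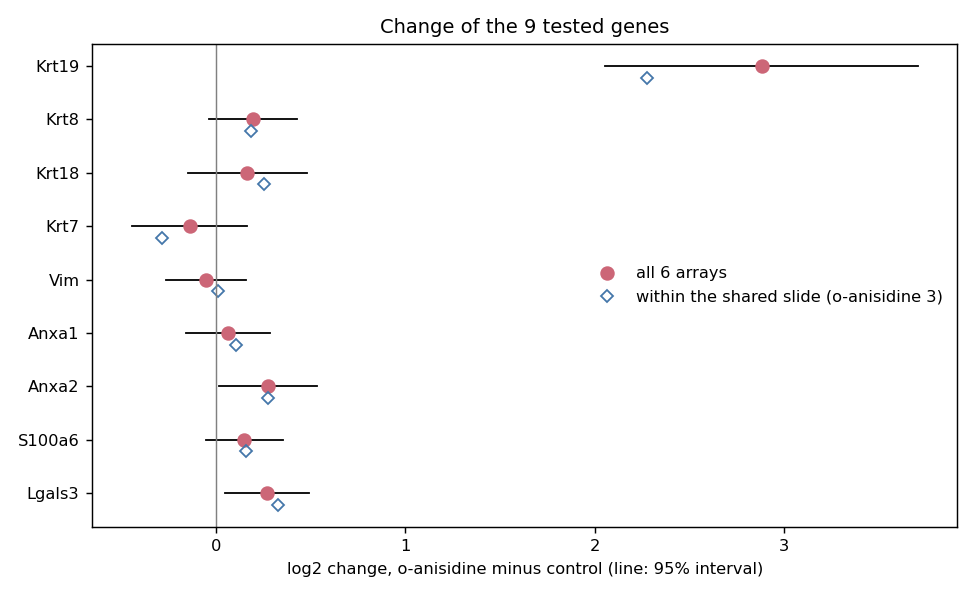
Log2 change between o-anisidine and control (x axis) for the 9 genes tested (y axis). Filled points are the change over all 6 arrays with its 95% interval from limma, and open diamonds the difference of o-anisidine 3 from the mean of the 3 controls on its slide. The interval of Krt19, 2.06 to 3.71, lies apart from those of the other 8 genes, and the intervals of Anxa2 and Lgals3 lie just above 0.

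Keratins outside the simple epithelial set gave few differences. Of 31 listed, 22 were on the array and 11 were tested, with 7 above 0 and 4 below, none past the threshold and a median log2 change of 0.08. Krt9 had the smallest p. Krt5, the basal keratin of urothelium, had a log2 change of 0.10 (SE 0.10). Krt16 and Krt17, the keratins of wounded skin, were not well above background on any array. Among 9 genes tested that link filaments to desmosomes and the cytoskeleton, 6 were above 0, none passed and the median was 0.05. Plec, the crosslinker that ties keratin and vimentin filaments to other structures, had the smallest p. It was at 2.41, 2.23 and 2.07 on the controls and 2.51, 2.51 and 2.63 after o-anisidine (log2 change 0.31, SE 0.11, adjusted p = 0.369 from limma).

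Several genes of injured and dedifferentiated tubule varied widely among the treated animals. Of 23 tested, 18 were above 0 and 5 below, none passed the threshold, and the median log2 change was 0.07. Treated values lay above all controls for 5 of 23, against 9.55% of all genes, and below them for 2 of 23, against 8.88%. Havcr1, the injury molecule of proximal tubule, was at -4.85, -3.61 and -5.23 on the controls and at 0.46, -4.39 and -3.02 on o-anisidine 1, 2 and 3. Spp1, or osteopontin, was at 3.15, 3.03 and 3.07 on the controls and at 6.39, 3.16 and 5.16 on the treated arrays. On o-anisidine 2, Havcr1 was inside its control range and Spp1 was near its highest control, while Krt19 was 2.81 above its control mean. Havcr1 and Spp1 were chosen after their values were seen. Egfr, the growth factor receptor, differed with the smallest p here, with a log2 difference of 0.44, an SE of 0.08 and an adjusted p of 0.148 from limma.

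Krt19 RNA is known from other cells that a cortex sample can hold, so markers of those cells are given beside it. In bulk tissue, more cells of a type and more RNA per cell cannot be told apart. The collecting duct and connecting tubule list had 5 of 19 genes above 0 and 14 below, with 5 lower at an unadjusted p under 0.05 (5.14% among all genes), a median log2 change of -0.09 and none past the threshold. Its summed signal was 479 to 508 on the controls and 375 to 479 on the treated arrays, in units of the array's 75th percentile. Scnn1b, a subunit of the epithelial sodium channel, had a log2 difference of -0.55 (SE 0.07; adjusted p = 0.101 from limma). The 5 lower genes were Aqp2, Avpr2, Scnn1b, Scnn1g and Hsd11b2. In the same list Cdh16, Tfcp2l1 and Gata3 had log2 changes of -0.0022, 0.01 and -0.0021, and Epcam had 0.15 (SE 0.06) without overlap. The part of collecting duct cells in the Krt19 values was not tested.

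Urothelium markers did not separate the groups. Of 12 listed, 9 were on the array and 6 were tested, 3 above 0 and 3 below. Their summed signal was 7.25 to 8.44 on the controls and 8.07 to 8.86 on the treated arrays. Tp63, at 2.77, 2.97 and 2.89 on the controls and 3.01, 3.07 and 2.91 after o-anisidine, made up nearly all of that sum. The other tested genes of the list were at -1.77 or lower on every array. Upk2 was not well above background on any array. Upk1a, which encodes a uroplakin, had the lowest p (log2 change 0.45, SE 0.20, adjusted p = 0.459). The thin limb list had 4 of 6 genes above 0, with a summed signal of 26.4 to 32.4 and then 31.2 to 54.2, and Cryab, a small heat shock chaperone, had a log2 difference of 1.03 with an SE of 0.35 (adjusted p = 0.368). The mesothelium and capsule list had 3 genes tested, all below 0, with summed signals of 4.56 to 5.03 and 3.37 to 4.93. In it, Msln was above background on only 2 controls and 1 treated array, and Wt1 had the lowest p (log2 change -0.20, SE 0.11, adjusted p = 0.530).

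Markers of cells that carry Vim, Lgals3, Anxa1 or S100a6 had list medians from -0.18 to 0.02, and none passed the threshold. Treated values lay below all controls for 2 of 14 fibroblast and mural, 2 of 10 endothelial and 3 of 11 podocyte and parietal genes. The macrophage, dendritic cell and neutrophil list had 1 of 16 (8.88% among all genes). Above all controls there were 1, 0, 0 and 2 in the same order (9.55% among all genes). Fibroblast and mural cell genes had 4 of 14 above 0 and a median of -0.18, and Thy1 had the lowest p (log2 change -0.56, SE 0.15, adjusted p = 0.282). Endothelial genes had 6 of 10 above 0 and a median of 0.02, and Eng, a receptor subunit, had -0.42 (SE 0.08; adjusted p = 0.159). Podocyte and parietal cell genes had 2 of 11 above 0 and a median of -0.11, and Tcf21, a transcription factor, had -0.44 (SE 0.16; adjusted p = 0.396). Macrophage, dendritic cell and neutrophil genes had 6 of 16 above 0 and a median of -0.09. Their summed signal was 179 to 190 on the controls and 161 to 209 on the treated arrays, lowest on o-anisidine 2, which was also the treated array with the lowest Lgals3. Cd14, a receptor of monocytes, had the lowest p (log2 change 0.39, SE 0.12, adjusted p = 0.323). The part of these cells in the values of Lgals3 was not tested.

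Among lymphocyte genes, Cd52 rose (log2 change 2.12, SE 0.17, adjusted p = 0.038 from limma), the only gene of all 18 other lists past the threshold, while 8 of 11 lymphocyte genes were below 0 and their median was -0.20. That call was lost under several alternatives, among them slide as a fixed block, the shared slide alone, no filter on dim probes, and leaving out any 1 of the 3 controls or of o-anisidine 1 or 3. Proximal tubule genes had 9 of 14 above 0 and a median of 0.04, and Hnf4a, a transcription factor of that segment, had the lowest p (log2 change -0.71, SE 0.11, adjusted p = 0.115). The mitosis list moved with Krt19 in direction: 20 of 20 tested genes lay above all controls, against 9.55% of all genes. All 20 had an unadjusted p under 0.05 from limma in that direction, against 6.36% of all genes, but none passed the threshold. The median was 1.25, and Racgap1, a regulator of cytokinesis, had 0.90 (SE 0.10, adjusted p = 0.0891 from limma). On o-anisidine 1, 2 and 3 the median of the list was 1.33, 0.83 and 1.53 above its controls, and Krt19 was 3.55, 2.81 and 2.28 above its control mean. Whether dividing cells carry the Krt19 RNA was not tested.

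**Figure D4:**
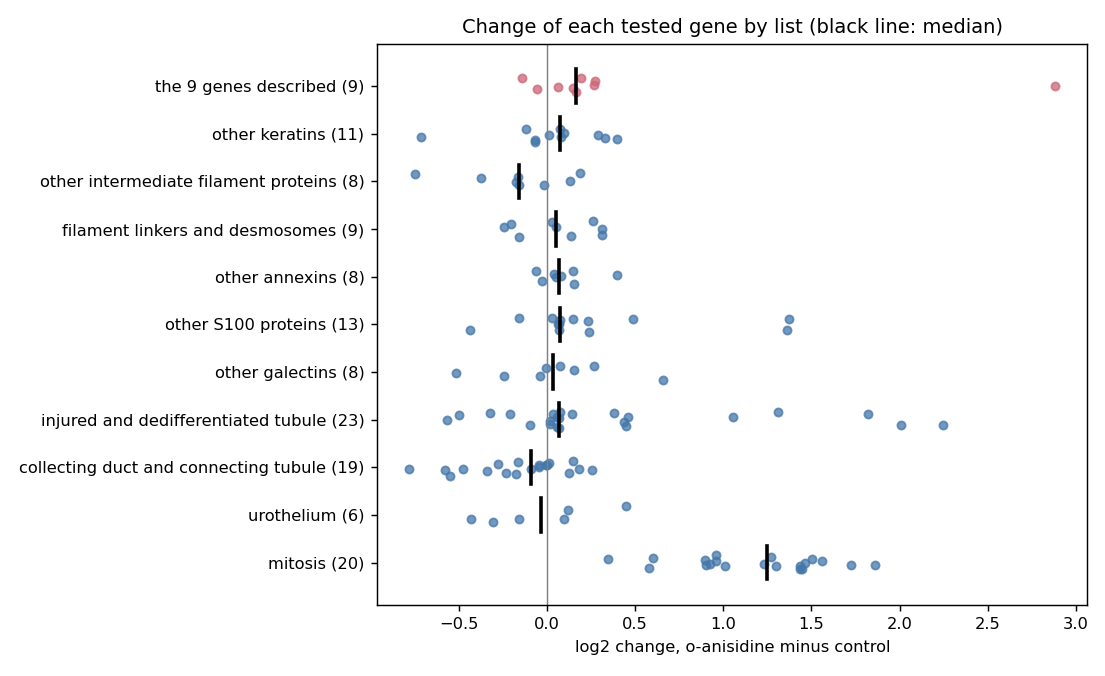
Log2 change between o-anisidine and control (x axis) of each tested gene in the set and in 10 other lists (y axis, number of tested genes in parentheses), with points spread vertically only for legibility and a black line at each median. The medians of the related families lie between -0.16 and 0.08, that of the 9 genes at 0.17 with Krt19 far to the right at 2.88, and that of the mitosis list at 1.25.

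The genes whose pattern over the 6 arrays was most like that of Krt19 were found among 12006 other genes with a symbol, by the root mean square difference of their deviations from the control mean. The closest was Alox15, an arachidonate lipoxygenase, at a difference of 0.37 log2 units (r = 0.977 over 6 arrays), followed by Rhd, a red cell blood group gene (0.48), Cd52 (0.58), Gstm1, a glutathione transferase (0.61), and Ahsp, a chaperone of alpha globin (0.62). Alox15, Rhd, Cd52 and Ahsp passed the threshold themselves, and the part of red cells in these values was not tested. These likenesses rest mainly on the size of the group difference, since each deviation is taken from the control mean. Closest to the mean of the 9 genes were Egfr (0.03), Frmd4a (0.05), Srebf2, a regulator of sterol genes (0.05), Bsn (0.05) and Lpcat3, a phospholipid acyltransferase (0.06). That mean is set largely by Krt19: it was 0.51, 0.39 and 0.37 on o-anisidine 1, 2 and 3, whereas the median of the other 8 genes was 0.13, 0.10 and 0.17.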

How the data were processed

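Groups and replicate numbers were taken from the sample titles. Scanner files were made by the authors with Agilent Feature Extraction 10.7.1.1, per the file headers, on an array annotated on rn4. The deposited processed intensity is background-subtracted and detrended within the array, and the median spot and local background intensity are uncorrected, per the file headers; flags mark other properties of each spot, per the file headers. The deposited value table held an intensity scaled to the 75th percentile, found by comparison, and each column equalled the scanner values of a different animal in its own group (r = 1.00), so replicate numbers here follow the scanner files.

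Control spots and 16 probes with an outlier flag were left out, and a probe was kept where the 3 arrays of either group were all well above background (42036 of 61657). Accessions, without version, were matched to RefSeq symbols of GRCr8 (27460 probes, 15284 symbols). A gene was its kept probe with the highest mean. Groups were compared with limma 3.58.1 in R 4.3.3 (lmFit and eBayes, two-sided, no covariates, Benjamini-Hochberg over 31087 genes, threshold 0.05), and the code was checked on simulated data. Residual degrees of freedom were 4 and prior ones 2.11, and intervals are 95%. The genes named are all 10 of the set and, in each of 18 other lists (280 genes named, 240 on the array, 206 tested), the 2 genes that rose most and the 2 that fell most past the threshold, or the one of smallest p if none did. Other genes were chosen after their values were seen. The genes and lists were chosen with earlier results of these data known.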

Additional observations from a re-analysis of the deposited data

How the results depend on the processing

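The log2 changes of Krt19, Krt8, Krt18, Krt7, Anxa1, Anxa2, S100a6 and Lgals3 kept their sign under all 17 alternatives with 1 value per gene. Krt19 lay between 2.28 (within the shared slide) and 3.18, with adjusted p from 0.0356 to 0.261. It was the 1 gene of the set past the threshold with normexp background correction (2.44) and with the variance model with trend and robust estimation (2.88), against 0 otherwise. Vim turned from -0.05 to 0.0087 with slide as a fixed block and within the shared slide.

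Over all genes, 11 were higher and 8 lower. The counts were 68 and 18 with normexp, 91 and 29 with trend and robust estimation, 5 and 6 with no filter on dim probes, and 9 and 5 with all 6 arrays well above background. With slide as a fixed block they were 2 and 1, within the shared slide 1 and 1, and with the replicate block 1 and 0. Leaving out 1 array gave 2 to 16 higher and 1 to 5 lower. Of the genes on other lists, 1 was higher and 0 lower. That was 9 higher with normexp, 7 higher and 1 lower with trend and robust estimation, and 0 higher with no filter, slide as a fixed block, the shared slide alone or the replicate block, and 0 to 2 on leaving out 1 array. The cause of these shifts was not tested.

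Same-numbered arrays correlated by 0.02, 0.08 and 0.01 in their deviations from group means, so the numbers do not pair the animals; no gene of the set passed with the replicate block. Slide as a random block was added after seeing the data (Krt19 2.81, adjusted p = 0.117). Normexp used median signals, and the planned version on mean signals was not run. Genes near background, such as Krt20, have no usable fold, and 3 arrays per group did not resolve changes of the size seen for Krt8.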
